A study of Arabidopsis thaliana with 24 samples.

Results

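The genes described here make, release and break down abscisic acid (ABA), the plant hormone that rises when water is short. They are 10 loci of Arabidopsis thaliana, chosen by locus identifier, out of 20514 loci in the expression table. ABA1 (AT5G67030), NCED3 (AT3G14440), NCED4 (AT4G19170), NCED9 (AT1G78390), ABA2 (AT1G52340), ABA3 (AT1G16540) and AAO3 (AT2G27150) belong to synthesis. CYP707A1 (AT4G19230) and CYP707A3 (AT5G45340) belong to catabolism, and BGLU18 (AT1G52400) to release from storage.

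Rosette leaves gave the RNA. They came from Tsu-1 and from Kas-1, which are accessions (natural lines), and the RNA was hybridised to expression arrays as biotin-labelled cRNA. The 4 groups of 6 arrays were Tsu-1 dry, Tsu-1 wet, Kas-1 dry and Kas-1 wet, and arrays are numbered here as in their titles, 1 to 6 for dry and 7 to 12 for wet. All plants grew 1 to a pot with a photoperiod of 10 h, and dry pots were let down slowly to about 50% of their water on day 5 while wet pots stayed near 90%. The study's design text speaks of 3 biological replicates for each group of 6 arrays and no label ties arrays to plants, so SDs and p-values measure the spread between arrays, which may be technical in part. Plant age at harvest is not given in the sources used here.

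ABA is made from carotenoids. ABA1 epoxidises zeaxanthin in the plastid, a dioxygenase of the NCED family cleaves the epoxycarotenoid to xanthoxin, ABA2 turns xanthoxin into abscisic aldehyde in the cytosol, and AAO3 oxidises the aldehyde to ABA with a cofactor that ABA3 sulfurates. Cleavage is regarded as the limiting step, and NCED3 is the family member best known for induction by drought in leaves. Hydroxylases of the CYP707A family start the breakdown of ABA to phaseic acid, and they are known to be induced by ABA itself. BGLU18 is a glucosidase of the endoplasmic reticulum that frees ABA from its inactive glucose ester, and it is also an abundant protein of the ER bodies that form in wounded leaves.

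Values are log2 expression values as deposited, so a difference of 1 is a 2-fold change, and differences are taken only between arrays for the same gene. Percentiles among loci place a gene's signal or spread on the arrays. The arrays had been scaled alike (medians 6.77 to 6.87). Loci whose mean lay above the 40th percentile of all loci (6.19) were tested with limma, and a difference was called at an adjusted p under 0.05, with the adjustment made over all 12308 tested loci. The mesophyll markers CA1 and GLDP1 had means at the 99.4th and 99.0th percentiles of all loci, while 4 of 4 markers of flowers and seeds lay at or below the 24.3rd percentile. Of the root markers, PRX57 lay at the 4.95th percentile, CASP1 at the 39.3rd and NRT2.1 at the 50.5th. Kas-1 dry 4 and 5 were nearly alike (Pearson correlation 0.995 over tested loci), and 4 arrays had weights between 0.283 and 0.416, the lowest of the 24 (Tsu-1 wet 7 and 9, Kas-1 dry 1 and 2).

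Of the 10 genes, 7 passed the intensity filter. ABA3 (mean over 24 arrays 5.57), AAO3 (5.70) and NCED9 (4.04) lay below it, NCED9 at only the 4.70th percentile of all loci. NCED9 is known as a gene of developing seeds. These 3 are described with values from a fit over all 20514 loci, and because they are dim a difference is one of signal on the array and fixes no transcript fold. The mean signals of CYP707A3 and ABA1 lay at the 96.6th and 92.6th percentiles of all loci. Each gene's values are drawn in the plot of values by array.

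**Figure D1:**
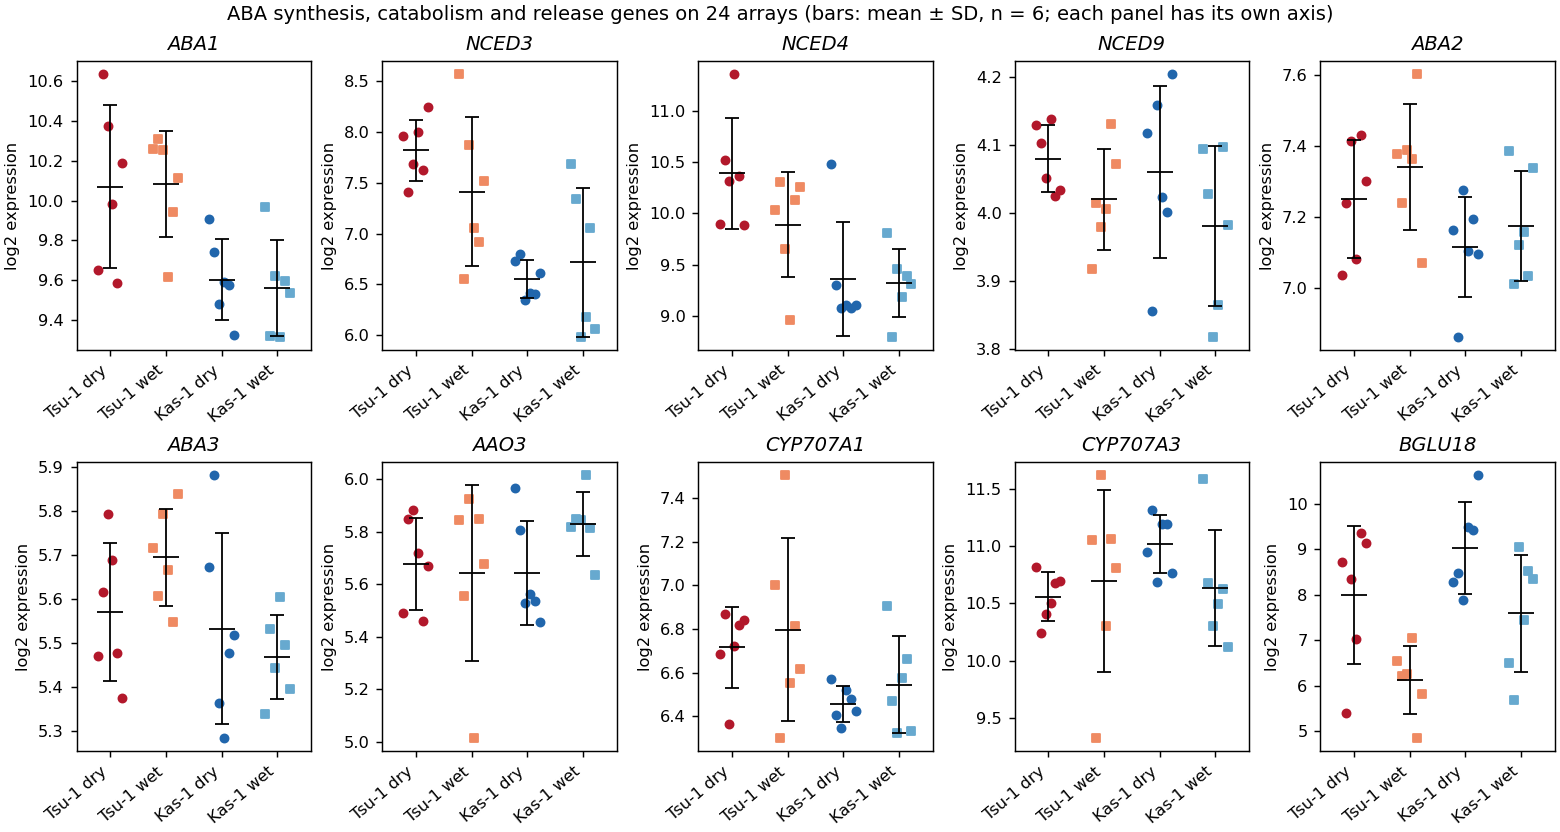
Log2 expression (vertical axis, a separate scale per gene) of the 10 genes on each array of Tsu-1 dry, Tsu-1 wet, Kas-1 dry and Kas-1 wet; points are arrays in the order of their numbers, and bars give the mean ± SD over 6 arrays. NCED3 separates the 6 Tsu-1 dry arrays (7.41 to 8.25) from the 6 Kas-1 dry arrays (6.35 to 6.80), and BGLU18 spreads from 4.85 to 10.62.

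The comparison of Tsu-1 with Kas-1 asked how the accessions differ in this pathway. Averaged over the soils, NCED3, NCED4, ABA1 and CYP707A1 were higher in Tsu-1 and BGLU18 was lower in Tsu-1. The difference was 1.98-fold for NCED3 and 1.74-fold for NCED4, and the gene for release differed most, with BGLU18 2.37-fold lower. In all, 5 of the 7 tested genes were called, 4 higher and 1 lower, beside 47.7% of all tested loci, 23.3% higher and 24.5% lower. The median log2 difference of the 7 was 0.26, against 0.00 over all tested loci. Because the RNA is from whole leaves, fewer cells of a type and less RNA per cell cannot be told apart. The match of probes to the alleles of either accession was not tested, so these are differences of signal on the array.

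NCED3, the cleavage enzyme gene that drought induces, had values of 7.41, 7.83 and 8.25 (lowest, median and highest) in Tsu-1 dry and 6.55, 7.28 and 8.57 in Tsu-1 wet. In Kas-1 dry they were 6.35, 6.52 and 6.80, and in Kas-1 wet 5.98, 6.61 and 7.68. The dry arrays of the accessions did not overlap, as was so for 11.6% of tested loci, whereas the wet arrays did. Its log2 difference averaged over the soils was 0.98 (SE 0.21, adjusted p = 5.61e-04). It was 1.27 in dry soil (SE 0.30, adjusted p = 0.00258), one of 3 calls there among the 7 genes beside 30.5% of loci. In wet soil it was 0.70 (SE 0.30, 95% interval 0.09 to 1.31, adjusted p = 0.0769) and was not called. Without the 4 arrays of low weight the wet-soil value was 0.29 (adjusted p = 0.479), and it was called without Tsu-1 wet 8 (0.87) and without Kas-1 wet 7 (0.89, adjusted p = 0.0239). The order of the group means was Tsu-1 dry (7.82 ± 0.30), Tsu-1 wet (7.41 ± 0.73), Kas-1 wet (6.72 ± 0.74) and Kas-1 dry (6.55 ± 0.19; SD, n = 6 each), and neighbours in that order overlapped on their arrays and differed by no called amount.

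NCED4 carries the family name but is also called CCD4, a carotenoid cleavage dioxygenase of plastid lipid bodies that is not thought to feed ABA synthesis. Its values were 9.88, 10.34 and 11.36 in Tsu-1 dry and 8.96, 10.08 and 10.30 in Tsu-1 wet. They were 9.07, 9.10 and 10.48 in Kas-1 dry and 8.79, 9.35 and 9.81 in Kas-1 wet. Of the 12 Tsu-1 arrays, 11 lay above the Kas-1 median, and in dry soil the overlap came from Kas-1 dry 1, the other 5 Kas-1 dry arrays lying at or below 9.30. The log2 difference was 0.80 averaged over the soils (SE 0.19, adjusted p = 0.00141), 1.04 in dry soil (SE 0.27, adjusted p = 0.00576) and 0.57 in wet soil (SE 0.27, adjusted p = 0.110). The wet-soil difference was not called. With array weights it was called, as in 1 of the 24 fits without 1 array.

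ABA1, the zeaxanthin epoxidase gene, had values of 9.59, 10.08 and 10.63 in Tsu-1 dry and 9.62, 10.18 and 10.31 in Tsu-1 wet. It had 9.33, 9.58 and 9.91 in Kas-1 dry and 9.32, 9.57 and 9.97 in Kas-1 wet. All 12 Tsu-1 arrays lay above the Kas-1 median and 8 of them above every Kas-1 array. The log2 difference was 0.49 averaged over the soils (SE 0.11, adjusted p = 0.00117), 0.47 in dry soil (SE 0.16, adjusted p = 0.0326) and 0.52 in wet soil (SE 0.16, adjusted p = 0.0182), where it was the 1 call among the 7 genes beside 30.1% of loci. The dry-soil call ended in 7 of the 24 fits that left out 1 array (Tsu-1 dry 2, 3 or 6, or Kas-1 dry 3, 4, 5 or 6; adjusted p 0.0532 to 0.0973), with those 12 arrays fitted alone (adjusted p = 0.0578) and with the alike Kas-1 dry 4 and 5 counted as 1 (adjusted p = 0.0542). The wet-soil call ended without the 4 arrays of low weight (0.44, adjusted p = 0.0843).

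None of the genes after cleavage was called. ABA2, the xanthoxin dehydrogenase gene, ranged from 6.86 to 7.60 over the 24 arrays, and its group means were 7.25 ± 0.17 in Tsu-1 dry, 7.34 ± 0.18 in Tsu-1 wet, 7.12 ± 0.14 in Kas-1 dry and 7.17 ± 0.16 in Kas-1 wet. Its log2 difference between the accessions was 0.15 (SE 0.07, 95% interval 0.01 to 0.29, adjusted p = 0.0650). It was called with consecutive array numbers averaged to 3 per group (0.15, adjusted p = 0.0432) and in 6 of the 24 fits without 1 array. AAO3, the abscisic aldehyde oxidase gene, averaged 5.68 ± 0.18 in Tsu-1 dry, 5.64 ± 0.34 in Tsu-1 wet, 5.64 ± 0.20 in Kas-1 dry and 5.83 ± 0.12 in Kas-1 wet. In the fit over all loci, where 35% were called, its difference was -0.08 (adjusted p = 0.550), that of the cofactor sulfurase gene ABA3 0.13 (adjusted p = 0.104) and that of NCED9 0.03 (adjusted p = 0.611). In wet soil, where that fit called 20.7%, ABA3 came nearest to a call, with a difference of 0.23 (SE 0.09, adjusted p = 0.0699) and 5 of 6 Tsu-1 wet arrays above every Kas-1 wet array.

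Of the hydroxylase genes, CYP707A1 was called and CYP707A3 was not (averaged difference -0.20, SE 0.19, adjusted p = 0.414), and the genes were not tested against each other. CYP707A1 had values of 6.36, 6.77 and 6.87 in Tsu-1 dry and 6.30, 6.72 and 7.50 in Tsu-1 wet, against 6.34, 6.45 and 6.57 in Kas-1 dry and 6.32, 6.52 and 6.90 in Kas-1 wet. Its 1.19-fold excess in Tsu-1 over both soils (log2 0.26, SE 0.10, adjusted p = 0.0408) was called, with 10 of 12 Tsu-1 arrays above the Kas-1 median. That call was lost in 14 of the 24 fits without 1 array (Tsu-1 dry 2, 4, 5 or 6, Tsu-1 wet 7, 9 or 11, Kas-1 dry 2, 3, 5 or 6, or Kas-1 wet 8, 9 or 12; adjusted p 0.0511 to 0.0704), with no filter (adjusted p = 0.0515), with array weights (0.18, adjusted p = 0.0588) and without the 4 arrays of low weight (0.15, adjusted p = 0.145). In dry soil CYP707A1 had a log2 difference of 0.26 (SE 0.14, adjusted p = 0.177), which was not called, with 5 of 6 Tsu-1 arrays above every Kas-1 array. That difference was called when the 12 dry arrays alone were fitted (adjusted p = 0.0415). CYP707A3 had values of 10.24, 10.59 and 10.82 in Tsu-1 dry and 10.69, 11.07 and 11.32 in Kas-1 dry. In that soil 4 of 6 Tsu-1 arrays lay below every Kas-1 array, and the log2 difference of -0.46 (SE 0.27, 95% interval -1.02 to 0.10, adjusted p = 0.209) was not called. It was called when those 12 arrays alone were fitted (adjusted p = 0.0202), a fit in which the wet arrays, whose SDs were 0.80 for Tsu-1 and 0.51 for Kas-1, took no part. In wet soil CYP707A3 had values of 9.32, 10.93 and 11.62 in Tsu-1 and 10.12, 10.56 and 11.58 in Kas-1, with a difference of 0.06 (SE 0.27, adjusted p = 0.886).

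BGLU18, the glucosidase gene, was lower in Tsu-1 but spread widely in every group. Its values were 5.40, 8.54 and 9.36 in Tsu-1 dry and 4.85, 6.24 and 7.06 in Tsu-1 wet. They were 7.88, 8.95 and 10.62 in Kas-1 dry and 5.69, 7.89 and 9.04 in Kas-1 wet. The groups overlapped in each soil, and Tsu-1 dry 2 (5.40) and Tsu-1 wet 11 (4.85) were the lowest arrays of their groups. The log2 difference was -1.25 averaged over the soils (SE 0.45, adjusted p = 0.0247), -1.03 in dry soil (SE 0.63, adjusted p = 0.228) and -1.46 in wet soil (SE 0.63, adjusted p = 0.0819). Without Tsu-1 dry 2 the dry-soil value was -0.51. The wet-soil difference was called with array weights and in 2 of the 24 fits without 1 array. The averaged call held in 24 of 24 fits without 1 array and was lost with consecutive numbers averaged to 3 per group (adjusted p = 0.0627).

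The gene beside BGLU18 in the RefSeq gene order, TSA1 (AT1G52410), encodes an ER body protein, and no protein-coding gene lies between them. TSA1 averaged 6.31 ± 0.25 in Tsu-1 dry, 5.90 ± 0.45 in Tsu-1 wet, 5.84 ± 0.49 in Kas-1 dry and 5.48 ± 0.25 in Kas-1 wet. TSA1 lies below the filter, and in the fit over all loci, where 35% were called, its signal was higher in Tsu-1 (log2 0.44, SE 0.14, adjusted p = 0.0182), the opposite direction to BGLU18, with 10 of 12 Tsu-1 arrays above the Kas-1 median. ABA2 lies near the pair, with 6 protein-coding genes between it and BGLU18. The other ER body genes NAI1, NAI2 and BGLU23 had group means between 3.93 and 4.54, below the lower quartile of all loci (5.21). MEB2, also below the filter, was lower in Tsu-1 in that fit (log2 difference -0.24, SE 0.06, adjusted p = 0.00135), the direction of BGLU18, and the list's only tested gene, MEB1, was not called in any comparison.

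**Figure D2:**
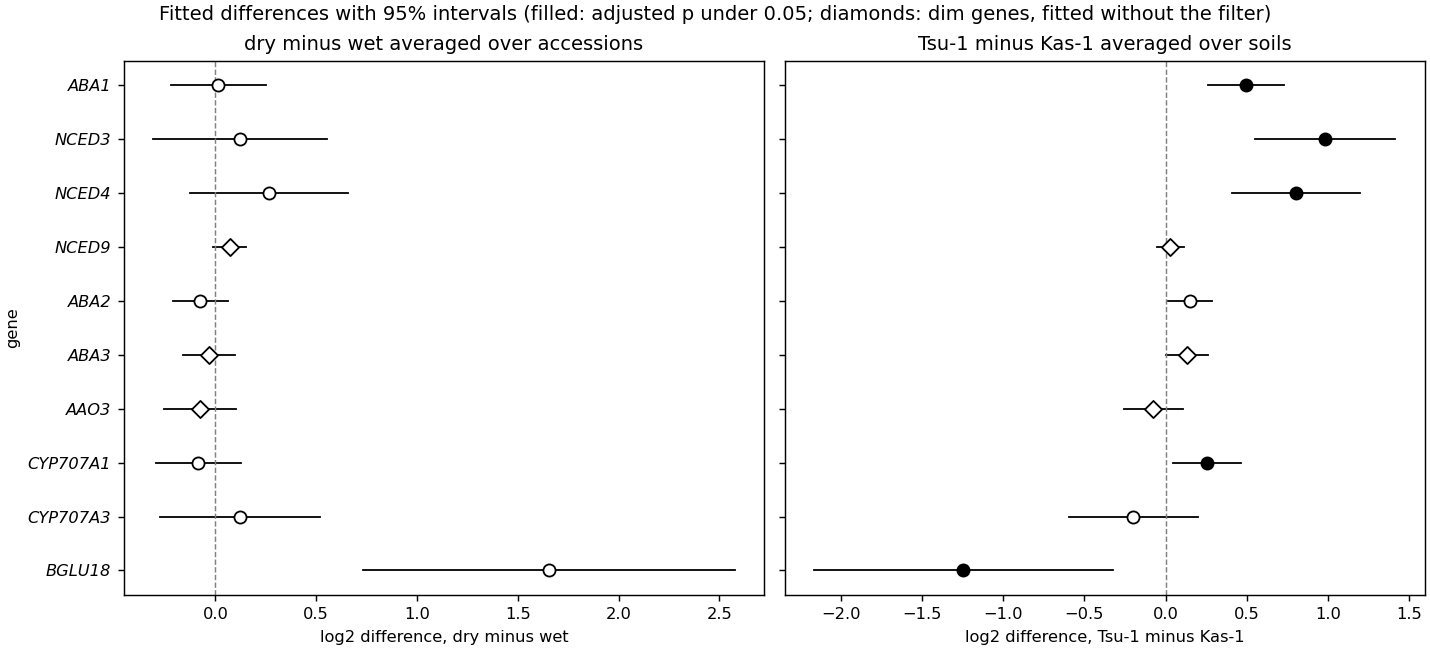
Fitted log2 differences of the 10 genes (horizontal axis) with 95% intervals, dry minus wet averaged over the accessions on the left and Tsu-1 minus Kas-1 over both soils on the right; filled circles were called, and diamonds mark the 3 dim genes. NCED3 (0.98), NCED4 (0.80), ABA1 (0.49), CYP707A1 (0.26) and BGLU18 (-1.25) are filled on the right, none on the left, where BGLU18 stands at 1.65.

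Other measures differed between the accessions as well. Markers of phloem companion cells, SUC2, AHA3, APL and SULTR2;1, were called higher in Tsu-1 in 4 of 4, beside 23.3% of loci, by 0.74, 0.67, 0.59 and 0.45 on the log2 scale, in each soil too. Their mean spanned 9.87 to 10.31 on the Tsu-1 dry arrays and 9.58 to 10.19 on the Tsu-1 wet arrays, against 9.30 to 9.52 in Kas-1 dry and 9.02 to 9.63 in Kas-1 wet. NCED3 is known to be expressed in vascular tissue, and the part of these cells in its difference was not tested. Of 12 touch and handling genes, ERF5 (0.85), CBF2 (0.79) and RHL41 (0.45) were called higher in Tsu-1, a share near the 23.3% of all loci. Positive differences were found in 10 of 12, beside 50.6% of all tested loci. Of 8 tested jasmonate and wounding genes, LOX2 (1.46) and AOS (0.77) were higher in Tsu-1 and JR1 (-0.88) and CORI3 (-0.56) lower, 4 of 8 called beside 47.7% of loci. The part of these lists in the differences above was not tested. Of the guard cell markers, only FAMA was tested, and it was lower in Tsu-1 (-0.27, adjusted p = 0.00547), as were 24.5% of loci. MYB60, HT1 and SLAC1 lay below the filter, and none of them was lower in Tsu-1 in both soils. Their means in Tsu-1 dry, Tsu-1 wet, Kas-1 dry and Kas-1 wet were 6.09, 6.11, 6.10 and 5.98 for MYB60. For HT1 they were 5.07, 5.08, 5.08 and 5.02, and for SLAC1 5.81, 5.98, 6.06 and 5.92. The mesophyll marker CA1 was lower in Tsu-1 (-0.56, adjusted p = 0.0172), while the other one tested, GLDP1, had a difference of 0.20 and was not called (adjusted p = 0.0617).

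Some genes whose products lie around these steps were called too, in counts to be read against the 47.7% of loci called. Among 13 genes that make the carotenoid precursors, 5 were higher in Tsu-1, 0 were lower and 8 were not called, beside the 23.3% of loci called higher. Their median log2 difference was 0.13. VDE1, the violaxanthin de-epoxidase gene that runs opposite to ABA1, averaged 9.26 ± 0.17 in Tsu-1 dry, 9.21 ± 0.13 in Tsu-1 wet, 8.65 ± 0.17 in Kas-1 dry and 8.68 ± 0.21 in Kas-1 wet. Its difference was 0.57 (SE 0.07, adjusted p = 1.26e-06). PDS3, a phytoene desaturase gene, was higher by 0.29, the phytoene synthase gene PSY by 0.22, ABA4, a gene for neoxanthin synthesis, by 0.20 and the carotenoid hydroxylase gene CYP97C1 by 0.17.

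Among the paralogs of the cleavage and oxidase genes, 3 of 7 were tested. CCD1, a cytosolic carotenoid cleavage dioxygenase gene, was higher in Tsu-1 by 0.41 (SE 0.08, adjusted p = 3.78e-04) and AAO2, an aldehyde oxidase gene, by 0.25, while AAO1, another aldehyde oxidase gene, had a difference of -0.27 and was not called (adjusted p = 0.101). NCED2, NCED5 and NCED6 were all below the filter, so NCED3 was the only tested member of the family that is known to make xanthoxin. Of 8 genes for other catabolism and conjugation, 4 were tested, and UGT71B7, one of the glucosyltransferase genes that can conjugate ABA, was higher by 0.36 (adjusted p = 0.0168). CYP707A2 and CYP707A4 were below the filter.

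Of 7 carriers linked to ABA, 6 were tested, 6 had positive differences (50.6% of all loci) and 2 were called, beside 23.3% of loci called higher. ABCG22, a gene that acts in the control of stomata, was higher in Tsu-1 by 0.79 (SE 0.12, adjusted p = 1.59e-05), with means of 8.76 ± 0.46 in Tsu-1 dry, 9.10 ± 0.20 in Tsu-1 wet, 8.12 ± 0.27 in Kas-1 dry and 8.17 ± 0.22 in Kas-1 wet. ABCG25, an ABA exporter gene, was higher by 0.68 (SE 0.19, adjusted p = 0.00465). In dry soil 3 carotenoid, 2 cleavage or oxidase and 2 carrier genes were called, and in wet soil 2, 1 and 1, all of them higher in Tsu-1, out of 13, 3 and 6 tested and beside 30.5% of loci in dry soil and 30.1% in wet soil. Of 12 tested genes that respond to ABA or dehydration, 5 were higher in Tsu-1 and 0 lower, beside 23.3% of loci called higher and 24.5% called lower, led by RD29A (2.12) and COR15A (1.01), with COR47 (0.75), ERD10 (0.44) and RD22 (0.34).

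**Figure D3:**
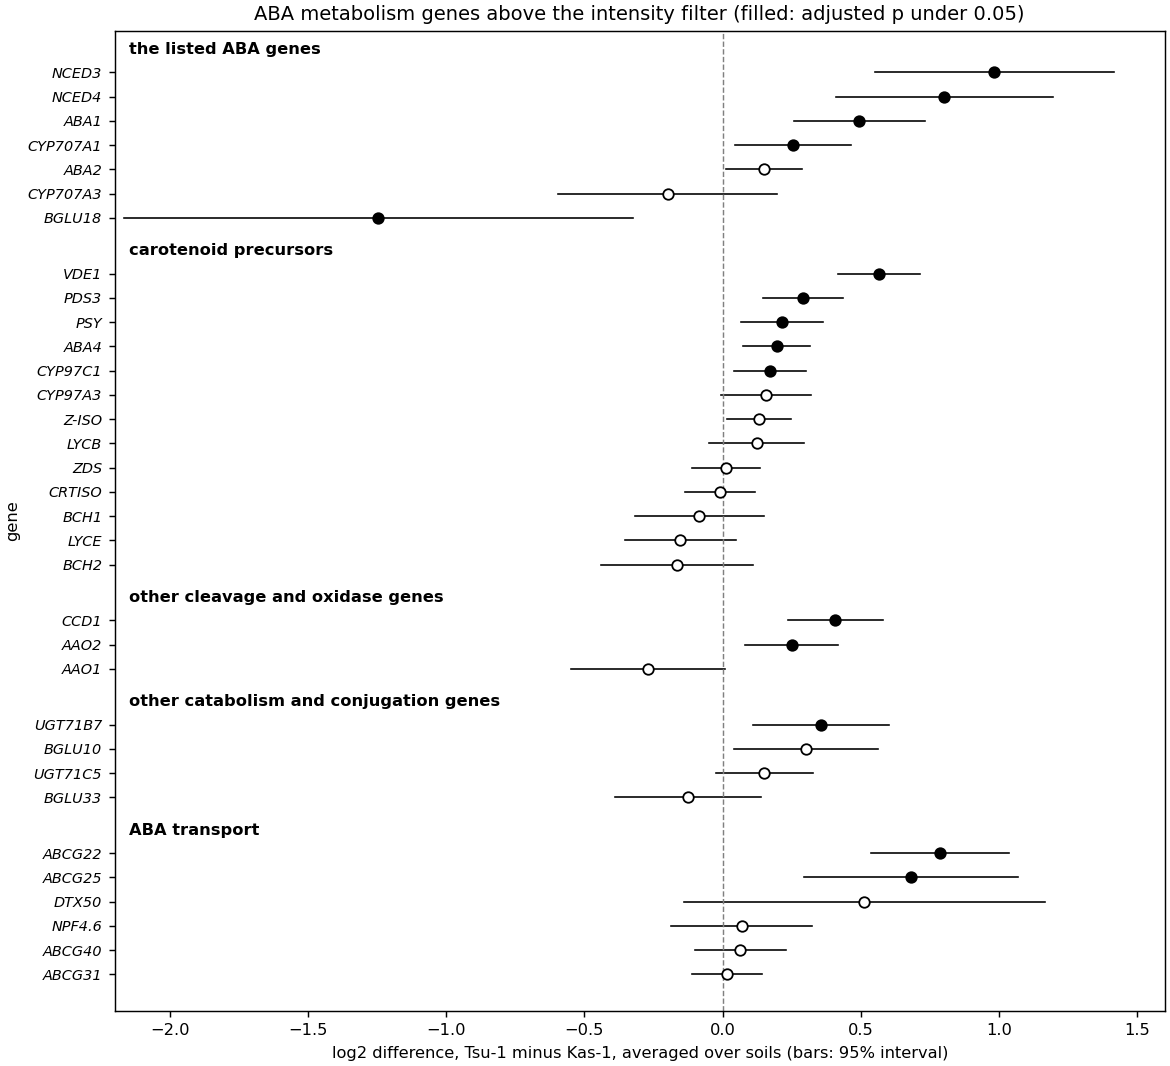
Log2 differences, Tsu-1 minus Kas-1 over both soils (horizontal axis, with 95% intervals), for the tested genes of ABA synthesis, catabolism and release and of 4 related lists; filled circles were called. Every filled circle except BGLU18 (-1.25) lies to the right of 0, from CYP97C1 (0.17) to NCED3 (0.98).

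The second comparison asked whether the pathway responded to slow, mild drying. Averaged over the accessions, 0 of the 7 tested genes were called by limma, beside 0.13% of all tested loci. One of them, BGLU18, had an unadjusted p under 0.05, as had 9.35% of loci. The 7 had a median log2 change of 0.12, against -0.02 over all tested loci. The step that is known to be induced by drought, NCED3, was no exception.

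On drying, NCED3 moved by 0.12 (log2, SE 0.21, 95% interval -0.31 to 0.56, adjusted p = 0.908). That interval averages the accessions and takes the arrays as independent. In Tsu-1 the change of NCED3 was 0.41 (SE 0.30), with a 95% interval from -0.20 to 1.02 that holds a 2-fold rise. There 6 of 6 dry arrays lay above the wet median but none above the highest wet array. In Kas-1 the change was -0.16 (SE 0.30, 95% interval -0.77 to 0.45), with 3 of 6 dry arrays above the wet median. The wet arrays of Tsu-1 and Kas-1 had SDs (0.73 and 0.74) near the log2 difference between the accessions in wet soil (0.70). The dry arrays lay closer together (SD 0.30 and 0.19). Without the 4 arrays of low weight the Tsu-1 change was 0.81 and was still not called (adjusted p = 0.194).

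None of the other synthesis genes was called either. For NCED4 the value was 0.27 (log2, SE 0.19, adjusted p = 0.704), made of 0.50 in Tsu-1 (SE 0.27), where 4 of 6 dry arrays lay above every wet array, and 0.03 in Kas-1 (SE 0.27). The estimate was 0.01 for ABA1 (95% interval -0.22 to 0.25) and -0.07 for ABA2 (95% interval -0.21 to 0.06). The dim genes AAO3 (-0.08), ABA3 (-0.03) and NCED9 (0.07) had adjusted p-values from 0.707 to 0.951 in the fit over all loci, which called 0.0487% of them.

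Neither hydroxylase gene was called. The estimate was -0.08 for CYP707A1 (95% interval -0.29 to 0.13) and 0.12 for CYP707A3 (95% interval -0.27 to 0.52). CYP707A3 differed in sign between the accessions, with -0.14 in Tsu-1 (0 of 6 dry arrays above the wet median) and 0.38 in Kas-1 (6 of 6 above it). The difference between these responses, -0.52, was not called (SE 0.38, adjusted p = 0.956).

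BGLU18 had the widest change on drying of the 10 genes, 3.15-fold higher in dry soil, a log2 change of 1.65 (SE 0.45, 95% interval 0.73 to 2.58), and it missed the threshold (adjusted p = 0.154, unadjusted p = 0.00115). Among the 12 dry arrays, 11 exceeded the wet median and 5 exceeded the highest wet array. The change was 1.87 in Tsu-1 (SE 0.63, adjusted p = 0.673) and 1.44 in Kas-1 (SE 0.63, adjusted p = 0.406), and Tsu-1 dry 2 at 5.40 was the 1 dry array below the wet median. With array weights the averaged change was called (1.80, adjusted p = 0.0416), where 102 loci were called in place of 16. Leaving out 1 array at a time gave changes of 1.46 to 1.91 and no call.

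Of 8 tested jasmonate and wounding genes, 1 was called on drying, LOX2, a gene of jasmonate synthesis (1.01, adjusted p = 0.0333), beside 0.13% of loci. All 8 had positive differences (median 0.70), against 42.6% of all tested loci. The list names 14 genes, of which 9 are in the expression table. TAT3, the one of these below the filter, had a change of -0.06 in the fit over all loci. The mean of that list over 9 genes spanned 8.06 to 8.85 on the Tsu-1 dry arrays and 7.30 to 9.07 on the Tsu-1 wet arrays, with 7.96 to 8.97 in Kas-1 dry and 7.21 to 8.60 in Kas-1 wet. JR1 (AT3G16470), a jasmonate-responsive lectin gene of the list, had the same signs as BGLU18 in both comparisons. So had CORI3 and JAZ10 of the list, with changes on drying of 0.70 and 0.15, neither called. JR1 averaged 8.28 ± 0.65 in Tsu-1 dry, 7.30 ± 0.27 in Tsu-1 wet, 8.97 ± 0.46 in Kas-1 dry and 8.39 ± 0.27 in Kas-1 wet. Its change on drying was 0.78 (SE 0.17, adjusted p = 0.0633), and its difference between the accessions, -0.88, was called (SE 0.17, adjusted p = 2.02e-04). Of the touch and handling genes, 11 of 12 were positive, beside 42.6% of all tested loci. Among the 12, limma called none and 2 had an unadjusted p under 0.05, beside 9.35% of loci. TSA1 had a change of 0.38 (SE 0.14, adjusted p = 0.456). The part of wounding or handling in the BGLU18 values was not tested.

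**Figure D4:**
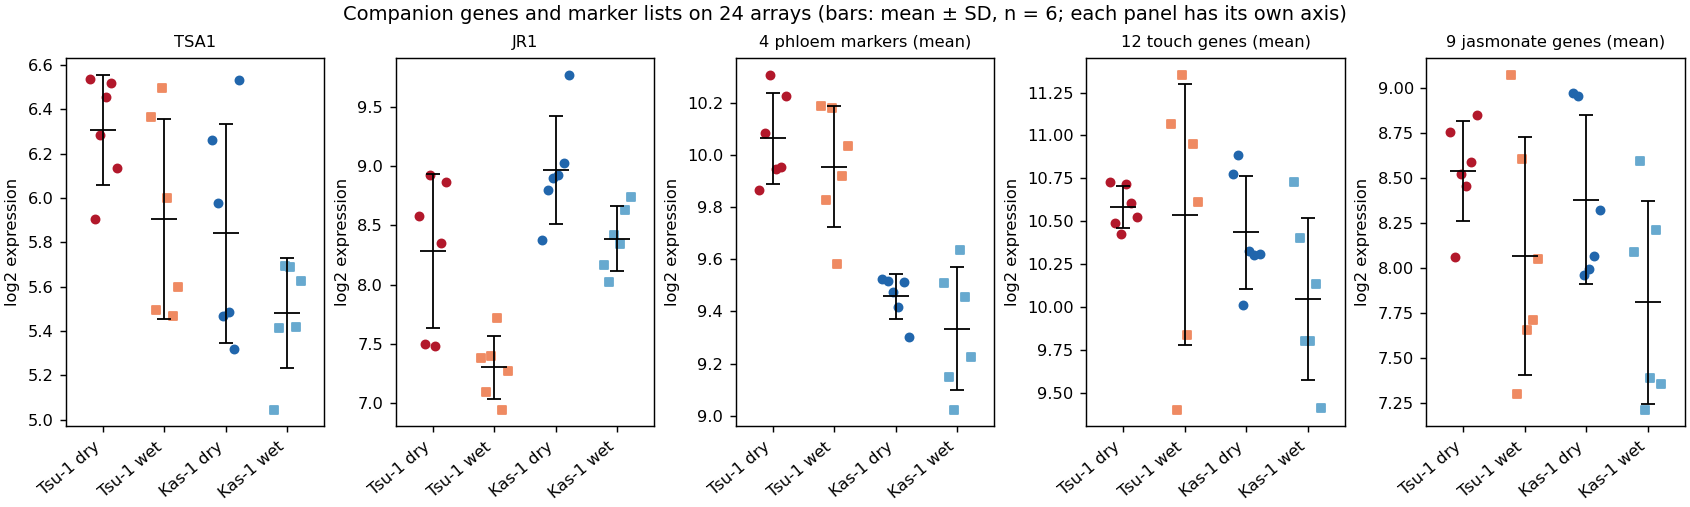
Log2 expression (vertical axis, a separate scale per panel) of TSA1, of JR1 and of the mean of 4 phloem companion cell markers, 12 touch and handling genes and 9 jasmonate and wounding genes on each array; bars give the mean ± SD over 6 arrays. JR1 is lower in Tsu-1 and TSA1 higher, the phloem markers are higher in Tsu-1, and the touch genes spread most in Tsu-1 wet (9.41 to 11.35).

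Within each accession the counts were the same. In Tsu-1, 0 of the 7 genes were called, beside 0.00812% of loci, and 1 had an unadjusted p under 0.05 (4.8% of loci). In Kas-1, 0 were called, beside 0.0731% of loci, and again 1 had an unadjusted p under 0.05 (10.7% of loci). That gene was BGLU18 in both. Around the pathway and averaged over both accessions, 0 of 13 carotenoid genes, 0 of 3 cleavage and oxidase paralogs, 0 of 4 catabolism and conjugation genes and 0 of 6 carriers were called on drying by limma, with 2, 0, 1 and 0 of them at an unadjusted p under 0.05, beside 9.35% of loci. Of the 12 tested genes that respond to ABA or dehydration, 1 was called on drying, LTP4, a lipid transfer protein gene (1.92, adjusted p = 0.0426), beside 0.13% of loci. LTP4 was not called in the fit over all loci (adjusted p = 0.0520). Of the 12 genes, 7 had positive changes, beside 42.6% of all tested loci.

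A test of the interaction set the drying response of Tsu-1 against that of Kas-1. None of the 7 genes was called by limma (0% of all tested loci), and 0 had an unadjusted p under 0.05, beside 5.87% of loci. The widest estimates were 0.57 for NCED3 (Tsu-1 minus Kas-1 response, 95% interval -0.29 to 1.44), -0.52 for CYP707A3 (-1.31 to 0.27), 0.47 for NCED4 (-0.32 to 1.25) and 0.44 for BGLU18 (-1.41 to 2.28). These intervals hold differences in response of 2-fold for each of the 4 genes.

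Arrays of a group also differed among themselves, by unequal amounts for the 7 genes. After the group means were subtracted, BGLU18 had an SD of 1.18, larger than 99.9% of tested loci, and its highest array was 54.5-fold above its lowest. NCED3 (0.55), CYP707A3 (0.50) and NCED4 (0.49) lay between the 93.5th and 95.6th percentiles, whereas ABA2 (0.16) lay below the median of 0.20. The following correlations are over the 24 arrays after subtraction of group means. They are descriptions without p-values, because arrays of a group may share plants and harvest.

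The closest pairs were among NCED3, a gene for making ABA, and CYP707A1 and CYP707A3, both for breaking it down. The Pearson correlation was 0.80 between the hydroxylase genes (Spearman 0.63), 0.70 between NCED3 and CYP707A3 (Spearman 0.66) and 0.60 between NCED3 and CYP707A1 (Spearman 0.54). ABA1 and NCED4 followed with 0.50 (Spearman 0.51). The other 17 of the 21 pairs lay between -0.40 and 0.21. Without the 2 arrays farthest from the median of the first gene, the 3 leading values were 0.64, 0.65 and 0.53. Within single groups the hydroxylase pair had 0.13 in Tsu-1 dry, 0.89 in Tsu-1 wet, 0.34 in Kas-1 dry and 0.92 in Kas-1 wet. NCED3 with CYP707A3 had 0.66, 0.68, 0.26 and 0.85 in that order of groups.

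Touch and jasmonate genes were set against the same 3 genes. CYP707A3 had a correlation of 0.90 with the mean of the 12 touch and handling genes (Spearman 0.84), and 0.83 without the 2 arrays farthest from the median. Within single groups it was 0.60 in Tsu-1 dry, 0.97 in Tsu-1 wet, 0.57 in Kas-1 dry and 0.92 in Kas-1 wet. NCED3 had 0.89 with the mean of the 9 jasmonate and wounding genes (Spearman 0.91), and 0.85 without the 2 farthest arrays. Within groups that was 0.81, 0.99, 0.96 and 0.90 in the same order of groups. With the touch list, CYP707A1 had 0.77 over the 24 arrays (Spearman 0.64), and 0.28, 0.88, 0.43 and 0.79 within groups. NCED3 had 0.76 with that list (Spearman 0.79), and 0.40, 0.72, 0.91 and 0.94 within groups. With the jasmonate list the values over 24 arrays were 0.53 for CYP707A1 and 0.61 for CYP707A3. Tsu-1 wet 8 and 10 and Kas-1 wet 12 were the 3 lowest arrays of the touch list relative to their group means, by -1.13, -0.70 and -0.63, and Tsu-1 wet 9, Kas-1 wet 7 and Tsu-1 wet 7 the 3 highest, by 0.81, 0.68 and 0.53. With the 17 genes that respond to ABA or dehydration, the correlation was 0.65 for NCED3, 0.57 for CYP707A1 and 0.43 for CYP707A3.

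BGLU18 did not share that pattern. Its correlation was -0.12 with NCED3, -0.29 with the touch list and -0.07 with the jasmonate list, although it had 0.80 with JR1, a member of that list. The JR1 value was 0.82 in Tsu-1 dry, 0.88 in Tsu-1 wet, 0.83 in Kas-1 dry and 0.85 in Kas-1 wet. Over all tested loci the 3 closest to BGLU18 were AGP31, an arabinogalactan protein gene, PLP3a and JR1, each at 0.80. JR1 is thus among the highest of 12307 correlations, and its values within the groups are no separate evidence.

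**Figure D5:**
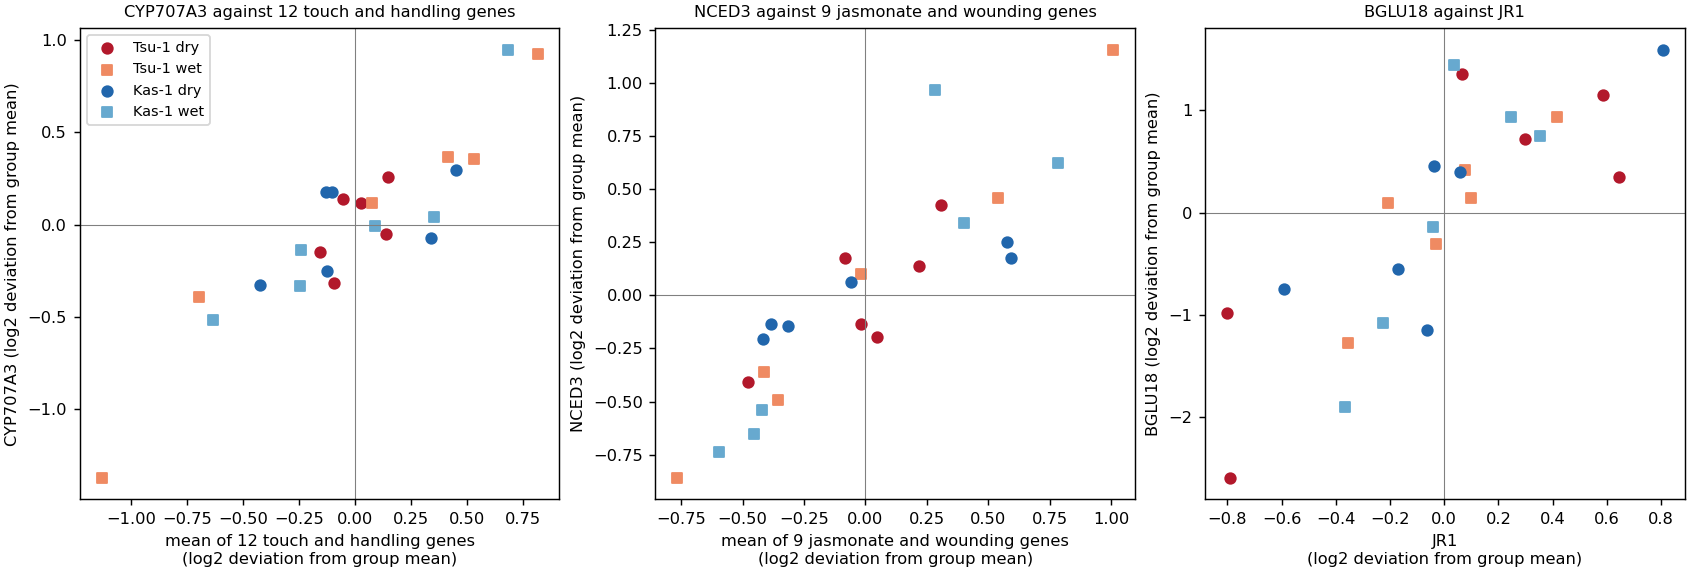
Deviation of each array from its group mean (log2) for CYP707A3 against the mean of 12 touch and handling genes, NCED3 against the mean of 9 jasmonate and wounding genes, and BGLU18 against JR1; colours and shapes mark the 4 groups. The Pearson correlations over 24 arrays are 0.90, 0.89 and 0.80.

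For the other genes, the 3 loci closest over the 24 arrays were as follows. Closest to NCED3 were SIP4 (0.94), a protein kinase gene, AT1G61890 (0.92) and LEA14 (0.91), a late embryogenesis abundant protein gene. Closest to CYP707A3 were AT5G18150 (0.94), RIPK (0.92), a kinase gene of immune signalling, and XT1 (0.92), a xyloglucan xylosyltransferase gene. Those closest to ABA1 were SPA1 (0.90), a light-signalling repressor gene, UMAMIT12 (0.90) and the carrier gene ABCG22 (0.89), which was also higher in Tsu-1. NCED4 was closest to AT4G18975, AT1G79600 and AT2G23390 (0.88 to 0.89), CYP707A1 to AT3G57930, AT2G35290 and AT1G07870 (0.86 to 0.89), and ABA2 to DXPS3 (0.79), AT1G62330 (0.72) and ARLA1A (0.72). These are the highest of 12307 correlations each, and loci of 1 array share its handling and scaling.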

How the data were processed

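Total RNA from rosette leaves was measured on 24 arrays in 4 groups of 6. The authors deposited 1 table of log2 values per locus and array, and the unit was read from the values (3.12 to 14.2). Per the submitters' processing notes MAS5 was used, and neither its version nor its role is stated. Background correction, probe summary, scaling and genome build are not given in the sources used here, so no coordinates are printed, and the match of probes to the alleles of either accession was not tested.

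Group means were fitted in R 4.3.3 with limma 3.58.1 (intensity trend, two-sided moderated tests, Benjamini-Hochberg adjustment), and 7 comparisons were drawn from 1 fit. The procedure was checked on simulated data with independent noise on each array, so the check does not cover arrays that share plants. Names follow the RefSeq table for TAIR10.1, which matched 20290 of the 20514 loci.

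The genes and lists were chosen with earlier results of these data known. All 10 genes are named, with called genes of the other lists (at most 5 per list and comparison), TSA1, and the 3 loci closest to each tested gene. Genes named beyond this, such as PRX57, serve as markers or for levels. Alternatives covered the filter, scaling, array weights, trend, arrays left out or averaged, the replicate block and fits of 2 groups. Array numbers were not taken as pairs.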

Additional observations from a re-analysis of the deposited data

Results flagged for a closer look

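In 2 of the 40 sets of 6 arrays (10 genes in 4 groups), 1 array stood apart from the other 5 by more than Dixon's 95% critical value, about the 5% that chance gives. NCED4 in Kas-1 dry was 10.48 on array 1, against at most 9.30 on the others of that group. CYP707A1 in Tsu-1 dry was 6.36 on array 3, the lowest of that group, against a median of 6.77.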

How the results depend on the processing

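ABA1, NCED3 and NCED4 kept their averaged Tsu-1 minus Kas-1 call, and NCED3 and NCED4 their dry-soil call, under every alternative that tested them. The number of the 7 genes called between the accessions, 5, was 3 with the filter at the 60th percentile, which tested 4 of them. It was 4 with no filter, with array weights and without the 4 arrays of low weight. In dry soil the count of 3 was 2 with the filter at the 60th percentile and with Kas-1 dry 4 and 5 counted as 1. It was 4 when the compared groups alone were fitted. In wet soil the count of 1 was 3 with array weights and 0 without the 4 arrays of low weight. On drying the count of 0 was 1 with array weights. Leaving out 1 array gave 4 to 6 calls averaged over the soils, 2 to 3 in dry soil, 1 to 2 in wet soil (2 without Tsu-1 dry 2, Tsu-1 wet 8 or 10, or Kas-1 wet 7 or 8) and 0 on drying and for the interaction. With the replicate block the counts were 5 averaged, 3 in dry soil, 1 in wet soil and 0 for the interaction, and it changed no call; same-numbered arrays deviated together (correlation over 0.1) in 4 of 12 pairs, and 2 of 12 Tsu-1 arrays correlated best with their own number in Kas-1. Calls over all loci on drying moved more, with 16 against 102 with array weights and 5 with consecutive numbers averaged, in Kas-1 9 against 1003 with array weights and 118 without the 4 arrays, in Tsu-1 1 against 17 and 44, and for the interaction 0 against 42 and 362. The cause was not tested. Signs turned only for differences called in neither fit. CYP707A1 had an interaction of -0.012 with quantile normalisation and -0.011 with median centring. With array weights drying gave -0.020 for ABA1, 0.023 for CYP707A1 in Tsu-1, and 0.014 for ABA2 and -0.15 for NCED4 in Kas-1. Without the 4 arrays drying gave 0.022 for CYP707A1 averaged, 0.073 for ABA1, 0.15 for CYP707A1 and 0.18 for CYP707A3 in Tsu-1, and -0.066 for ABA1 and -0.23 for NCED4 in Kas-1, while CYP707A3 between the accessions in wet soil was -0.26 and the ABA1 interaction 0.14. Leaving out 1 array gave drying changes of -0.041 to 0.063 for ABA1 and -0.014 to 0.22 for CYP707A3 averaged. In Tsu-1 they were -0.13 to 0.082 for ABA1, -0.18 to 0.060 for CYP707A1 and -0.41 to 0.048 for CYP707A3. In Kas-1 they were -0.016 to 0.13 for ABA1, -0.31 to 0.030 for NCED3 and -0.19 to 0.13 for NCED4. The CYP707A3 wet-soil difference was then -0.12 to 0.34, and the interactions -0.17 to 0.038 for ABA1, -0.085 to 0.022 for ABA2 and -0.093 to 0.15 for CYP707A1. The number of arrays limits precision, and low signal limits what ABA3, AAO3 and NCED9 can show.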

Other observations

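CYP707A2, an ABA hydroxylase gene best known from seeds, lay below the intensity filter and is named here after its values were seen. It averaged 6.32 ± 0.24 in Tsu-1 dry, 5.96 ± 0.25 in Tsu-1 wet, 5.72 ± 0.38 in Kas-1 dry and 5.45 ± 0.10 in Kas-1 wet (log2, SD, n = 6 each). In the limma fit over all loci, which called 35% of them, its signal was higher in Tsu-1 (log2 0.56, SE 0.10, adjusted p = 1.49e-04), with 12 of 12 Tsu-1 arrays above the Kas-1 median. Its change on drying was 0.31 (SE 0.10, adjusted p = 0.333), with 9 of 12 dry arrays above the wet median.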
